A study of Mus musculus with 24 samples.

Results

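The genes described here are 7 of the 28109 in a gene expression table of differentiating mouse muscle cells: Ankrd1, Ankrd2 and Ankrd23, which code for ankyrin repeat proteins, Fhl1, Fhl2 and Fhl3, which code for LIM-only proteins of the FHL family, and Csrp3, which codes for muscle LIM protein. They were chosen by gene name as genes known to respond to stretch, at a time when the silencing results of these same data were known, so their fold changes and adjusted p-values place them among all genes and are no independent evidence. RNA-seq was made from C2C12 cells, a mouse myoblast line established from the C3H strain, and from primary myoblasts (PMs) of wild-type C57/B6 mice aged 3 to 4 weeks grown on matrigel. All cells received siRNA, either a non-targeting control that the labels name siLuc (siControl) or pools against Tead1 and Tead4 together (siTead1/4), so that no group was left untransfected. Cells were collected undifferentiated at day 0, which was 24 hours after transfection, and at days 3 and 6 in 2% horse serum. There were thus 12 groups of 2 biological replicates and 24 libraries. C2C12 cells are 1 line, and line, strain and origin differ together between C2C12 cells and PMs.

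Ankrd1, Ankrd2 and Ankrd23 proteins bind the elastic N2A region of titin, the giant spring protein of the sarcomere, and also enter the nucleus, where they act on transcription. FHL proteins consist of zinc-binding LIM domains that hold protein partners together at the sarcomere, at adhesions and in the nucleus. Csrp3 protein sits at the Z-disc, where thin filaments of neighbouring sarcomeres are anchored, and it also assists myogenic transcription factors. Tead1 and Tead4 are DNA-binding factors that recognise the MCAT element, a motif described in many muscle promoters, and that work with the cofactors Yap and Taz.

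Total counts on genes ranged from 25453830 to 52784510 in the C2C12 libraries and from 32571583 to 51110723 in the PM libraries, and all 7 genes passed the filter on low counts in each fit. Levels are given as CPM, the count of a gene scaled to its library's total with TMM normalization, with the SD of 2 libraries. SE stands for the approximate standard error of a log2 fold change, its size divided by the square root of the F statistic of the edgeR test. A gene was called changed at a Benjamini-Hochberg adjusted p under 0.05 in edgeR's quasi-likelihood test and an absolute log2 fold change over 1. Since nothing says that replicates came from separate cultures or mice, the p-values measure only the spread between these libraries. Tead4 was called down after siTead1/4 silencing at all 3 days in PMs and at days 0 and 3 in C2C12 cells, whereas Tead1 was called down in PMs at days 0 and 3 and at no day in C2C12 cells. At day 0 the C2C12 siTead1/4 libraries stood at 28.9 and 4.5 CPM of Tead1 against 70.5 and 113 in siControl, so the first replicate kept more of it. At least 9 of 10 markers of skeletal muscle cells reached 1 CPM in every library. The summed level of 9 fibroblast markers ranged from 4444 to 23911 CPM in C2C12 cells and from 1344 to 12005 CPM in PMs, and that of 5 markers of smooth muscle cells and pericytes from 534 to 4732 and from 1695 to 7301 CPM. One of these 5, Des, is also among the skeletal muscle markers, and without it the sum was 121 to 410.5 CPM over all libraries. The summed markers of endothelial cells, macrophages, Schwann cells and adipocytes each stayed at or under 27.1 CPM. In such bulk samples fewer cells of a type and less RNA per cell cannot be told apart.

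In the mm9 build that the counts use, Ankrd1 lies at chr19:36186455-36194334 on the minus strand and Ankrd2 at chr19:42110528-42119600 on the plus strand of the same chromosome. Ankrd23 is at chr1:36587379-36592584 and Fhl2 at chr1:43179919-43220806, both on the minus strand. Fhl1 occupies chrX:53984964-54046523 on the plus strand, Fhl3 chr4:124377945-124385855 on the plus strand and Csrp3 chr7:56085768-56103400 on the minus strand. Among the 7, only Fhl1 overlaps another annotated gene, a U6 RNA gene on the same strand. The union of exons in the GENCODE vM1 annotation equalled the length in the deposited table for all 7 genes, from 932 bases for Csrp3 to 3722 bases for Fhl1.

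All 7 genes were found by symbol in the RefSeq promoter table of the later build GRCm38.p6, with 11 promoters of 300 bases that run from 250 bases before a transcript start to 50 after it. The promoters of the ankyrin repeat genes and Fhl1 are shown because Ankrd2, Ankrd23 and Fhl1 were called down in siTead1/4 PMs and Ankrd1 was not. Capitals mark the MCAT core CATTCC, searched on both strands (GGAATG where it lies on the minus strand), and the CArG box, the binding motif of serum response factor.
Ankrd1, chr19:36119795-36120094, minus strand: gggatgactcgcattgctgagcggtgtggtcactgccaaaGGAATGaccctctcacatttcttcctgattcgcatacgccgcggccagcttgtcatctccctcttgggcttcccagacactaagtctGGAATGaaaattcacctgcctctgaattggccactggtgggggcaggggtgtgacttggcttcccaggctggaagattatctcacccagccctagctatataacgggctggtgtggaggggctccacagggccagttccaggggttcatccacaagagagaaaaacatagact
Ankrd2, chr19:42035777-42036076, plus strand: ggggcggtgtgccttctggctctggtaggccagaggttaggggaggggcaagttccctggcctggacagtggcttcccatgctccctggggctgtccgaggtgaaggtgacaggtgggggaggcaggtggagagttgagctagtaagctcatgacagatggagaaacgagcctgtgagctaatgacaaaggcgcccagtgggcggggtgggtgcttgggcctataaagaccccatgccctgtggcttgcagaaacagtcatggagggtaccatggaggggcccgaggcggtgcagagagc
Ankrd23 start 1, chr1:36535690-36535989, minus strand: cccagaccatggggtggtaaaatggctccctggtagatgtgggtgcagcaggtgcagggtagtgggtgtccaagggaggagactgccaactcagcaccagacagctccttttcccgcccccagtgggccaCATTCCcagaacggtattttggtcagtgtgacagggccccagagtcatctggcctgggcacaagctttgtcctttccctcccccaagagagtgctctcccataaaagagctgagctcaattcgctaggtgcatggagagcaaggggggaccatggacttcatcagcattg
Ankrd23 start 2, chr1:36536507-36536806, minus strand: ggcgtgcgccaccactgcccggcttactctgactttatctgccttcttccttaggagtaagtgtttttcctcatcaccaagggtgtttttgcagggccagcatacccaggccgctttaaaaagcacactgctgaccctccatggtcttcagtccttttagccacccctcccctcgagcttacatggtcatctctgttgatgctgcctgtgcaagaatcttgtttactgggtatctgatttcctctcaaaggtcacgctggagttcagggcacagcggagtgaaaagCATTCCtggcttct
Fhl1 start 1, chrX:56779433-56779732, plus strand: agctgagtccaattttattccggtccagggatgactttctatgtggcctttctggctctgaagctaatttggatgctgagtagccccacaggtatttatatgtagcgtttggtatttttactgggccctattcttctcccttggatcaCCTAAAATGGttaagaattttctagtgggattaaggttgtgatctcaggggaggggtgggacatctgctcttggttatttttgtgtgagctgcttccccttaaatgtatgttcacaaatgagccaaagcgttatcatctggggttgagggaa
Fhl1 start 2, chrX:56786277-56786576, plus strand: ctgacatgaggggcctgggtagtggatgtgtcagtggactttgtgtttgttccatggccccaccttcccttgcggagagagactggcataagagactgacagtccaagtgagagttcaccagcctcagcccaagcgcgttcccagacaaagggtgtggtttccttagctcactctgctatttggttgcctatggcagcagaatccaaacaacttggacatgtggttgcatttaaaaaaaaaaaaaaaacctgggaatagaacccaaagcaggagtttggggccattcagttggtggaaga

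The MCAT core was present in 3 of the 11 promoters, which belong to Ankrd1 and Ankrd23, and in 14.7% of all 32851 promoters of this length in the table. In Ankrd1 the 2 matches span bases -210 to -205 and -123 to -118 from the start, and in Ankrd23 they span -120 to -115 from start 1 and 37 to 42 from start 2. A CArG box was found in 3 promoters of Fhl1 and Fhl2, against 1.63% of all promoters, and the second start of Fhl2 also held a MEF2 site, which 3.19% of promoters hold. The E-box CAGCTG, searched as a palindrome, was in none of the 11 and in 16.3% of all promoters. No match overlapped another, and none was found in the windows of Ankrd2, Fhl3 and Csrp3. These matches describe letters in a short window and were not tested for binding.

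**Figure D1:**
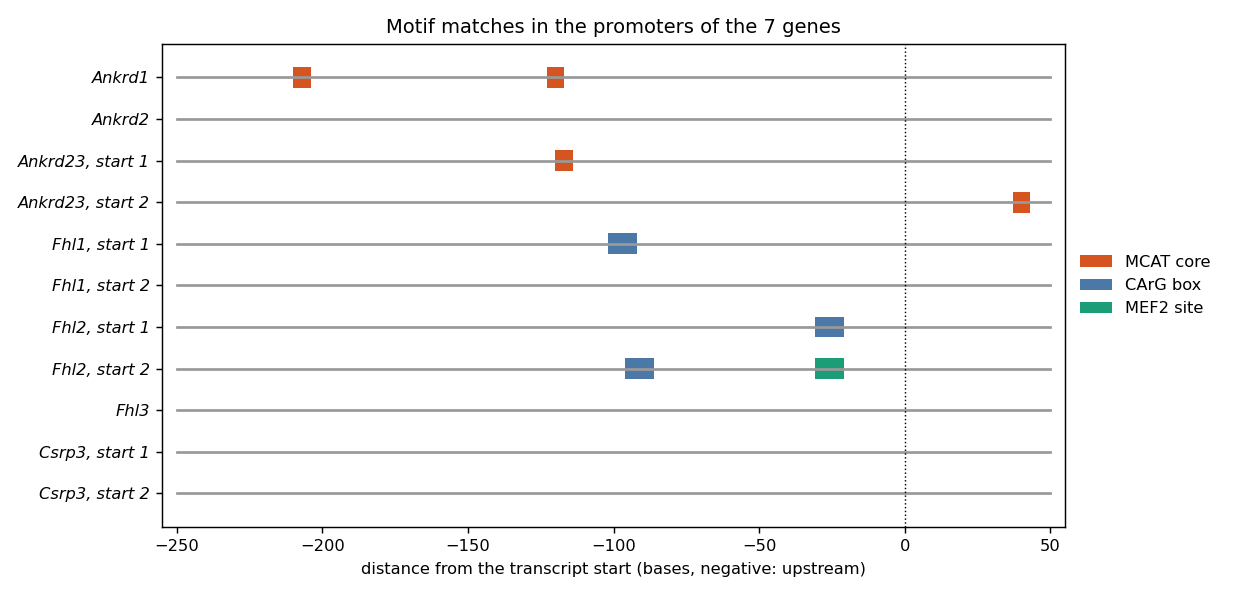
Matches to the MCAT core, CArG box and MEF2 site in 11 promoters of the 7 genes. The horizontal axis is the distance from the transcript start in bases, and each grey line is 1 promoter of 300 bases. Ankrd1 and Ankrd23 carry the MCAT core, Fhl1 and Fhl2 the CArG box, the second start of Fhl2 also a MEF2 site, and Ankrd2, Fhl3 and Csrp3 none of these motifs.

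In undifferentiated siControl cells, Ankrd1 had by far the highest level per length of the 7 genes. It stood at 328 ± 29.5 CPM per kb (SD, n = 2) in C2C12 cells and at 380.2 ± 60.6 CPM per kb in PMs. The next gene in both was Fhl1, at 51.5 ± 15.9 and 41.4 ± 9.21 CPM per kb. Fhl1, Fhl3 and Fhl2 followed each other with overlapping libraries in C2C12 cells at day 0, whereas Ankrd23 and Csrp3 were under 1 CPM per kb there and Ankrd2 had at most 3 counts in a library. At day 3 the order in siControl C2C12 cells was Ankrd1, Fhl1, Csrp3, Ankrd2, Ankrd23, Fhl2 and Fhl3, and only the neighbours Ankrd2 and Ankrd23 overlapped. By day 6 in PMs the first place had passed to Ankrd23 with 779.9 ± 106.5 CPM per kb. Fhl1, Ankrd1 and Csrp3 came next with overlapping neighbours, at 384 ± 5.32, 321 ± 95.7 and 295 ± 70.1 CPM per kb. Ankrd2 was then last with 5.91 ± 1.04 CPM per kb.

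**Figure D2:**
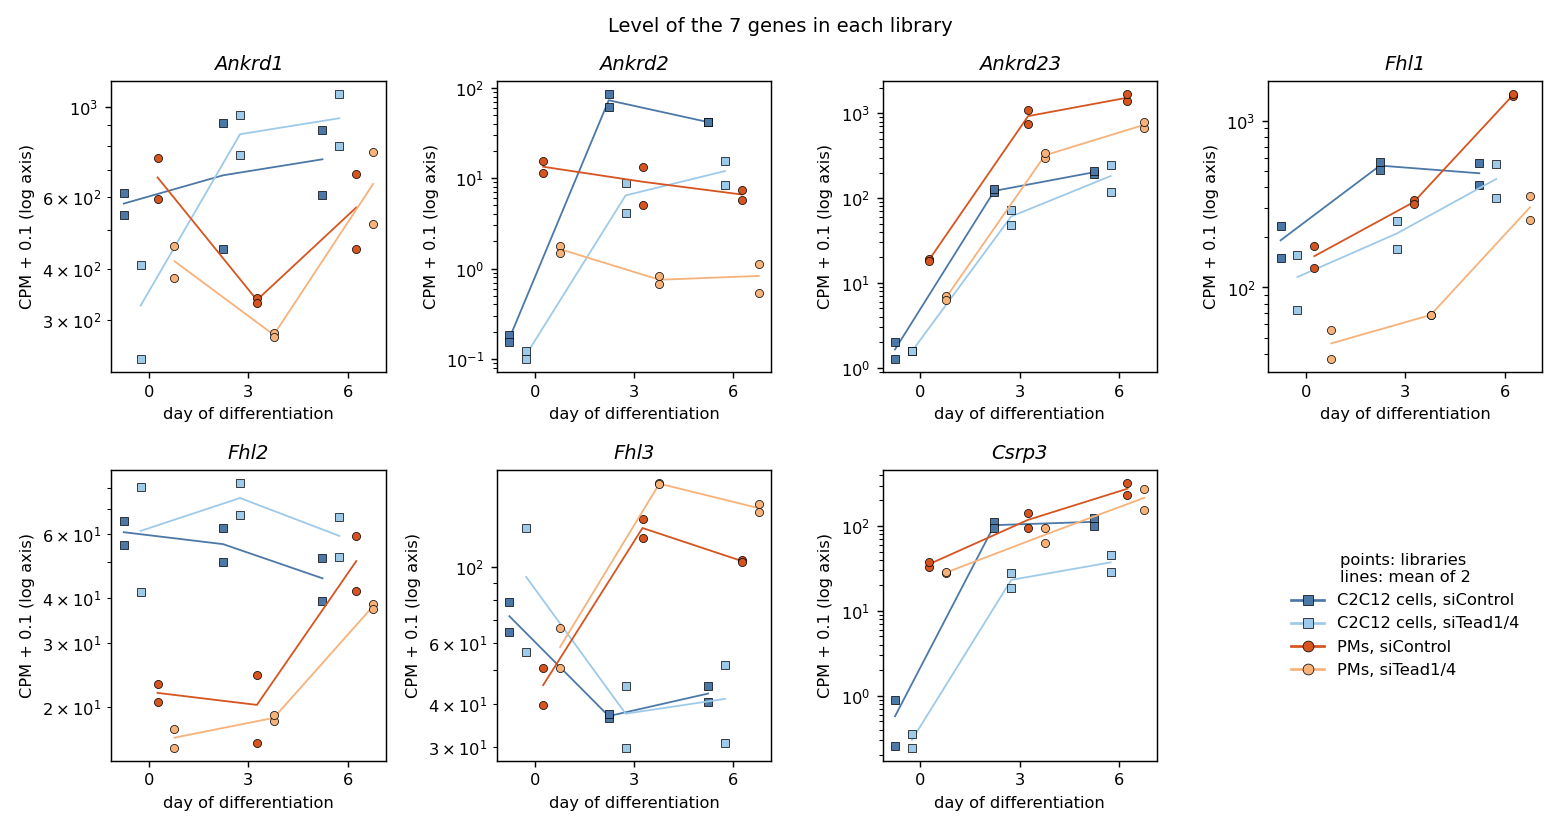
CPM plus 0.1 of each gene on a log axis against the day of differentiation, with 1 point per library and lines through the means of 2 libraries. Squares are C2C12 cells, circles are PMs, and paler colours are siTead1/4. Ankrd2, Ankrd23 and Fhl1 of siTead1/4 PMs lie below the siControl PMs at all 3 days, whereas Ankrd1 crosses between siRNAs in both cell types.

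The ankyrin repeat genes took different courses in siControl cells. Ankrd23 rose strongly in both cell types, Ankrd2 rose in C2C12 cells and was lower at day 6 in PMs, and Ankrd1 stayed high throughout with a fall at day 3 in PMs. In C2C12 cells 4 of the 7 genes were called up at day 3 and 4 at day 6 against day 0, beside 28.7% and 31.1% of all genes called in either direction. In PMs 4 were called up and 1 down at day 3, and 5 up and 1 down at day 6, beside 32.3% and 35.5% of all genes. From day 3 to day 6 in PMs 3 genes were called up, beside 2.8% of all genes. These comparisons share their siControl libraries.

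Ankrd23 had 1.91 and 1.17 CPM in the C2C12 siControl libraries at day 0, 116.5 and 127 at day 3, then 193 and 211 by day 6. The 3 days did not overlap. The log2 fold change over day 0 was 6.28 at day 3 (SE 0.43, adjusted p = 5.65e-06 by edgeR) and 7.01 at day 6 (SE 0.44). In PMs the libraries stood at 18.9 and 17.9 CPM at day 0, 1097.5 and 758 at day 3, then 1384 and 1679.6 by day 6. Every later library was far above both day 0 libraries, with log2 fold changes of 5.60 (SE 0.22, adjusted p = 6.48e-08 by edgeR) and 6.31 (SE 0.22). From day 3 to day 6 the log2 fold change was 0.71, under the size needed for a call.

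Ankrd2, a stretch-induced gene best known from slow muscle, was all but silent in undifferentiated C2C12 cells. Both siControl libraries at day 0 held 3 counts. At day 3 the libraries stood at 84.9 and 60.7 CPM and at day 6 at 42.0 and 41.4 CPM. Against a floor of 3 counts per library these levels were at least 1056-fold and at least 605-fold higher than at day 0. PMs already had 15.3 and 11.3 CPM at day 0, then 13.1 and 5.0 at day 3, then 5.69 and 7.3 by day 6. The day 3 libraries were 2.62-fold apart and overlapped those of day 0. The fall at day 6 was called (log2 fold change -1.10, SE 0.42, adjusted p = 0.0407 by edgeR) but lost with any 1 of the 4 libraries left out, when the adjusted p ranged from 0.0546 to 0.196, and with all 24 libraries in one fit (adjusted p = 0.0535).

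Ankrd1, also called CARP, is induced by stretch and is a well-known target of Yap and Tead. In siControl C2C12 cells it stood at 615.5 and 542 CPM at day 0, 911 and 447 at day 3, then 879 and 608 by day 6. The replicates of day 3 were 2.04-fold apart and enclosed both libraries of day 0. In PMs the values were 595.5 and 747 CPM at day 0, 340.5 and 331 at day 3, then 447 and 686 by day 6. Both day 3 libraries lay below the other siControl PM libraries, and the fall from day 0 was called (log2 fold change -1.05, SE 0.23, adjusted p = 0.00243 by edgeR). Without the second day 0 library the log2 fold change was -0.88, and with all 24 libraries in one fit it did not exceed 1 in size, so that both were short of a call.

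The make-up of the ankyrin repeat transcripts per length differed by cell type and day. Ankrd1 made up 99.7% and 99.8% of their summed CPM per kb in the C2C12 siControl libraries at day 0 and 78.5% and 70.4% at day 6. In siControl PMs it went from 93.5% and 95.6% at day 0 to 26.3% and 31.1% at day 6. Ankrd23 held 73.2% and 66.8% of the PM sum at day 3 and 73.2% and 68.4% at day 6, whereas its share in C2C12 cells was 9.08% and 17.3% and 15.5% and 21.9% at these days. The share of Ankrd2 was largest in the siControl C2C12 libraries of day 3, at 11.8% and 14.8%.

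**Figure D3:**
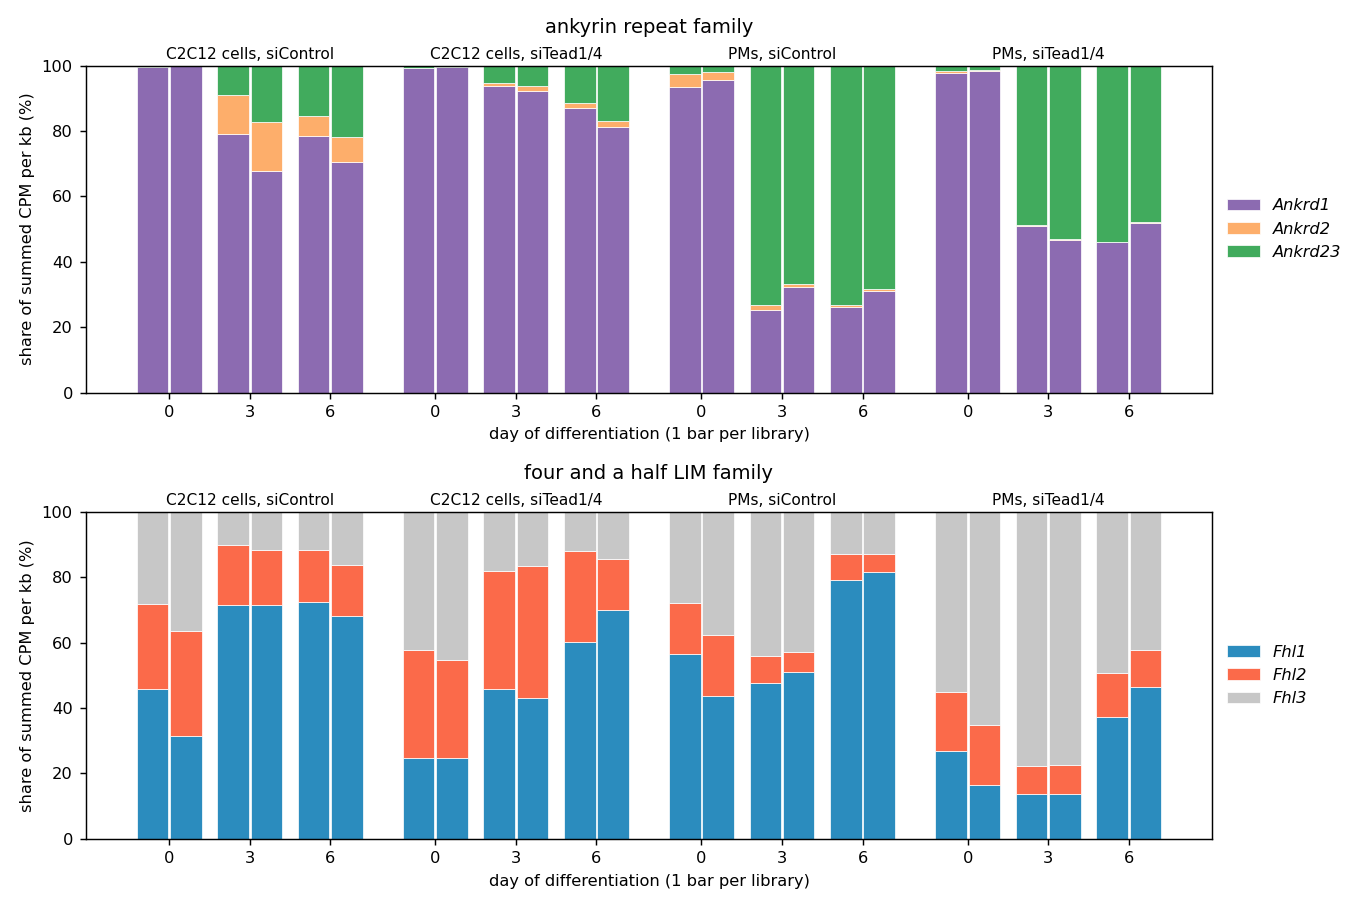
Share of each gene in the summed CPM per kb of the ankyrin repeat genes (upper panel) and of the FHL genes (lower panel), in percent, with 1 bar per library grouped by day of differentiation. Ankrd23 makes up 66.8% or more of the ankyrin repeat sum in the siControl PM libraries of days 3 and 6, and Fhl3 77.3% or more of the FHL sum in the siTead1/4 PM libraries of day 3.

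Among the FHL genes, Fhl1 rose in both cell types, and Fhl2 and Fhl3 rose in PMs alone among the called changes. Fhl1, the member most abundant in skeletal muscle and mutated in inherited myopathies, stood at 178 and 129.9 CPM in siControl PMs at day 0, 333 and 318 at day 3, then 1416 and 1444 by day 6. No day overlapped another. The day 6 level exceeded that of day 0 by a log2 fold change of 3.15 (SE 0.22, adjusted p = 1.08e-06 by edgeR) and that of day 3 by 2.12 (SE 0.22, adjusted p = 0.00123 by edgeR). The smaller rise at day 3 (log2 fold change 1.02, SE 0.21, adjusted p = 0.00173 by edgeR) came to 0.81 without the second day 0 library and to 0.99 without the first day 3 library, both short of a call. In siControl C2C12 cells Fhl1 went from 233.5 and 150.0 CPM at day 0 to 569 and 508 at day 3, then 557 and 412 by day 6. Both days were above day 0 in every library (log2 fold change 1.45, SE 0.40, adjusted p = 0.0163 by edgeR at day 3 and log2 fold change 1.30, SE 0.40, adjusted p = 0.0243 by edgeR at day 6). The day 3 call was lost without the second day 0 library (adjusted p = 0.118), the first day 3 library (0.0693) or the second (0.0508), and the day 6 call without the second day 0 library (0.154) or the first day 6 library (adjusted p = 0.13).

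Fhl2, a cofactor of many transcription factors and the FHL gene of the heart, had 20.6 and 23.0 CPM in siControl PMs at day 0, 24.4 and 15.9 at day 3, then 58.8 and 41.7 by day 6. Both day 6 libraries were above the 4 earlier ones (log2 fold change 1.14, SE 0.20, adjusted p = 0.000625 by edgeR against day 0). Without the first day 6 library the log2 fold change was 0.87, no longer a call. In siControl C2C12 cells Fhl2 ranged from 39.0 to 65.0 CPM over all days, and neither day was called against day 0. Fhl3, which binds actin and has been linked to the control of MyoD, rose in PMs from 39.6 and 50.8 CPM at day 0 to 138 and 121 at day 3 (log2 fold change 1.47, SE 0.15, adjusted p = 1.39e-05 by edgeR) and 104.5 and 104 at day 6 (log2 fold change 1.14, SE 0.15, adjusted p = 7.37e-05 by edgeR). The day 6 change was 0.97 without the first day 0 library. In siControl C2C12 cells Fhl3 was at 64.7 and 78.9 CPM at day 0 and lower in all 4 later libraries, at 36.2 to 45.0 CPM, with an edgeR adjusted p of 0.0586 at day 3 and 0.12 at day 6.

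Csrp3 was nearly absent from undifferentiated C2C12 cells, with 0.788 and 0.16 CPM from 28 and 9 counts. It stood at 111 and 93.5 CPM at day 3, then 124.5 and 99.4 by day 6 in siControl cells. The log2 fold changes were 7.82 (SE 0.60, adjusted p = 1.01e-05 by edgeR) and 7.96 (SE 0.60). They were 9.26 and 9.39 without the first day 0 library and 6.98 and 7.12 without the second, all called. PMs had 32.8 and 37.7 CPM at day 0, 94.4 and 142 at day 3, then 229 and 321 by day 6. The 3 days did not overlap, and the log2 fold change over day 0 was 1.69 at day 3 (adjusted p = 0.000713 by edgeR) and 2.90 at day 6 (adjusted p = 1.92e-05 by edgeR). The step from day 3 to day 6 in PMs (log2 fold change 1.21, SE 0.30, adjusted p = 0.0408 by edgeR) was lost with any 1 of the 4 libraries left out (adjusted p from 0.0521 to 0.232) and with all 24 libraries in one fit (adjusted p = 0.137).

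Between siControl PMs and C2C12 cells, 3 genes were called higher in PMs and 1 lower at day 0, beside 26.8% of all genes called. At day 3 it was 2 higher and 3 lower, beside 29.8%, and at day 6 it was 4 higher and 1 lower, beside 24.9%. Ankrd23 was higher in PMs at all 3 days, with log2 fold changes of 3.60, 2.93 and 2.92 (standard errors 0.34, 0.30 and 0.30). The order turned for Ankrd2, from at least 193-fold higher in PMs at day 0 against the floor of 3 counts per library to lower in PMs at day 3 (log2 fold change -3.01, SE 0.45, adjusted p = 4.3e-05 by edgeR, and -3.88 without the first PM library) and day 6 (log2 fold change -2.68, SE 0.44, adjusted p = 0.000172 by edgeR). Csrp3 was higher in PMs at day 0 (log2 fold change 6.36, SE 0.52, adjusted p = 4.99e-08 by edgeR), by 7.73 without the first and 5.44 without the second C2C12 library, with overlapping libraries at day 3, and higher again at day 6 by 1.30, a call lost without the second C2C12 library (1.13, adjusted p = 0.0933) or the second PM library (1.02, adjusted p = 0.109). Fhl2 was lower in PMs at days 0 and 3, with log2 fold changes of -1.47 and -1.47, and overlapped at day 6. Fhl3 was higher in PMs at day 3 (1.82) and day 6 (1.29), and Fhl1 at day 6 (1.56). For Ankrd1 a lower level in PMs at day 3 (-1.02) was called, and it came to -0.44 without the first C2C12 library, which alone reached 911 CPM. The call was also lost without either PM library (adjusted p = 0.0735 and 0.0825) and at -0.99 with DESeq2 or its size factors.

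After siTead1/4 silencing in PMs, Ankrd2, Ankrd23 and Fhl1 fell at all 3 days, and Ankrd1, Fhl2, Fhl3 and Csrp3 were not called at any. The 3 falls stood beside 2.6% of all genes called in either direction at day 0, 3.3% at day 3 and 0.743% at day 6. Since the genes were chosen with these results known, the counts are a description. An unadjusted p under 0.05 was reached by 3756, 3668 and 1914 of the 16144 tested genes at days 0, 3 and 6. The median log2 fold change of the 7 was -0.69, -0.59 and -0.41 at days 0, 3 and 6, beside -0.01, 0.01 and 0.00 over all tested genes.

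Of these 3 genes Ankrd2 lost the largest share of its level. At day 0 the siTead1/4 libraries had 1.67 and 1.4 CPM against 15.3 and 11.3 in siControl, which left 11.5% of the control mean. At day 3 they had 0.579 and 0.722 against 13.1 and 5.0 CPM, and at day 6 0.433 and 1.02 against 5.69 and 7.3 CPM. Every siTead1/4 library was below every siControl library of its day, and each siTead1/4 library at days 3 and 6 held only 15 to 33 counts. The log2 fold changes were -3.13 (SE 0.46, adjusted p = 0.00404 by edgeR), -3.80 (SE 0.49, adjusted p = 0.00184 by edgeR) and -3.16 (SE 0.50, adjusted p = 0.0184 by edgeR). The day 6 call was lost without the first siTead1/4 library (-2.66, adjusted p = 0.132) or the second siControl library (-2.97, adjusted p = 0.0583). It was -3.90 without the second siTead1/4 library, and the day 3 value was -2.95 without the first siControl library, both still called.

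Ankrd23 was at 6.86 and 6.16 CPM in siTead1/4 PMs at day 0 against 18.9 and 17.9 in siControl. At day 3 it was at 297 and 344 against 1097.5 and 758 CPM, and at day 6 at 673 and 794 against 1384 and 1679.6 CPM. The groups did not overlap at any day, and 35.4%, 34.5% and 47.9% of the control mean remained. The log2 fold changes were -1.51 (adjusted p = 0.00213 by edgeR), -1.54 (adjusted p = 0.00122 by edgeR) and -1.06 (adjusted p = 0.0226 by edgeR), with standard errors of 0.19, 0.18 and 0.18. The day 6 call was lost without either siTead1/4 library (first -0.94, adjusted p = 0.161, second -1.19, adjusted p = 0.0566), without the second siControl library (-0.91, adjusted p = 0.101), and when all 24 libraries were fitted together (adjusted p = 0.174). In silenced PMs, too, each day 6 library of Ankrd23 was far above both of day 0.

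Fhl1 stood at 55.1 and 37.2 CPM in siTead1/4 PMs at day 0 against 178 and 129.9 in siControl. It was at 68.7 and 67.9 against 333 and 318 CPM at day 3 and at 253 and 352 against 1416 and 1444 CPM at day 6. No silenced library reached a control library of its day, and 29.9%, 21.0% and 21.2% of the control mean remained. The log2 fold changes were -1.75 (SE 0.21, adjusted p = 0.00182 by edgeR), -2.26 (SE 0.22, adjusted p = 0.000601 by edgeR) and -2.24 (SE 0.22, adjusted p = 0.00199 by edgeR). These calls held with each library left out in turn, as did those of Ankrd2 and Ankrd23 at days 0 and 3.

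Fhl3 had higher values after silencing, at 176 and 174 against 138 and 121 CPM at day 3 and 152 and 145 against 104.5 and 104 CPM at day 6. The groups did not overlap at these days, but the log2 differences of 0.42 (adjusted p = 0.113 by edgeR) and 0.51 (adjusted p = 0.151 by edgeR) were not called. Beside the fall of Fhl1, the share of Fhl3 in the summed FHL level per kb was 77.6% and 77.3% in the siTead1/4 libraries of day 3 against 43.9% and 42.9% in siControl. The share of Fhl1 was 37.2% and 46.3% at day 6 against 79.2% and 81.5%. Among the ankyrin repeat genes, Ankrd23 held 48.8% and 53.0% of the sum per kb in siTead1/4 PMs at day 3, against 73.2% and 66.8% in siControl.

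For Ankrd1 the PM libraries stood at 381 and 455 CPM in siTead1/4 against 595.5 and 747 in siControl at day 0, a log2 difference of -0.69 (SE 0.23, adjusted p = 0.095 by edgeR). The DESeq2 adjusted p was 0.0224. In edgeR it was 0.0193 with the replicate block, 0.00442 with no filter and 0.373 with all 24 libraries in one fit. The size was short of a call in each. Day 0 libraries did not overlap, those of day 3 were at 279 and 273 against 340.5 and 331 CPM, and those of day 6 overlapped. Fhl2 differed by -0.42, -0.13 and -0.41 and Csrp3 by -0.34, -0.59 and -0.35 on the log2 scale at days 0, 3 and 6. The silenced libraries were all below the controls for Fhl2 at days 0 and 6 and for Csrp3 at day 0, and overlapped them otherwise. Beside these values, the summed skeletal muscle markers were at 6439 and 6579.6 CPM in siTead1/4 against 7076.5 and 7099.8 CPM in siControl PMs at day 0, at 13022 and 14046 against 16136 and 15131 CPM at day 3 and at 12749 and 13817 against 13108 and 15022 CPM at day 6. None of the 10 muscle markers was called by edgeR or DESeq2 in PMs at any day, with 1, 5 and 0 at an unadjusted p under 0.05 at days 0, 3 and 6. The summed fibroblast markers at day 0 were 2035 and 1696 CPM in siTead1/4 against 1422 and 1344 CPM, so that at day 0 the groups overlapped in neither sum. Of the 9 fibroblast markers edgeR called 2 down at day 6, beside 0.743% of all genes, and DESeq2 called 1 down at day 3 and 3 down at day 6. Their sum at day 6 was 10590.0 and 8660.5 against 12005 and 9735 CPM. The summed smooth muscle and pericyte markers were 5893 and 6461.5 against 7301 and 6922 CPM at day 3 and 6043 and 6122 against 6765 and 7094 CPM at day 6, without overlap, and they overlapped at day 0. Without Des the silenced libraries were the higher ones at all 3 days. They were at 285.1 and 279.3 against 204.2 and 235.2 CPM at day 0. At day 3 they were at 400.1 and 410.5 against 370.2 and 306 CPM, and at day 6 at 365 and 360.0 against 294 and 328 CPM. None of these 5 was called in PMs by edgeR or DESeq2, with 1, 3 and 0 at an unadjusted p under 0.05 at days 0, 3 and 6. Of 6 endothelial markers 1 was called up at day 0, beside 2.6% of all genes, where their sum was 16.7 and 5.29 against 11.1 and 3.18 CPM. The summed Schwann cell markers at day 0 were 16.1 and 16.9 against 10.6 and 8.14 CPM, with none of the 4 tested called, and they overlapped at days 3 and 6. The part of these markers in the results was not tested.

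**Figure D4:**
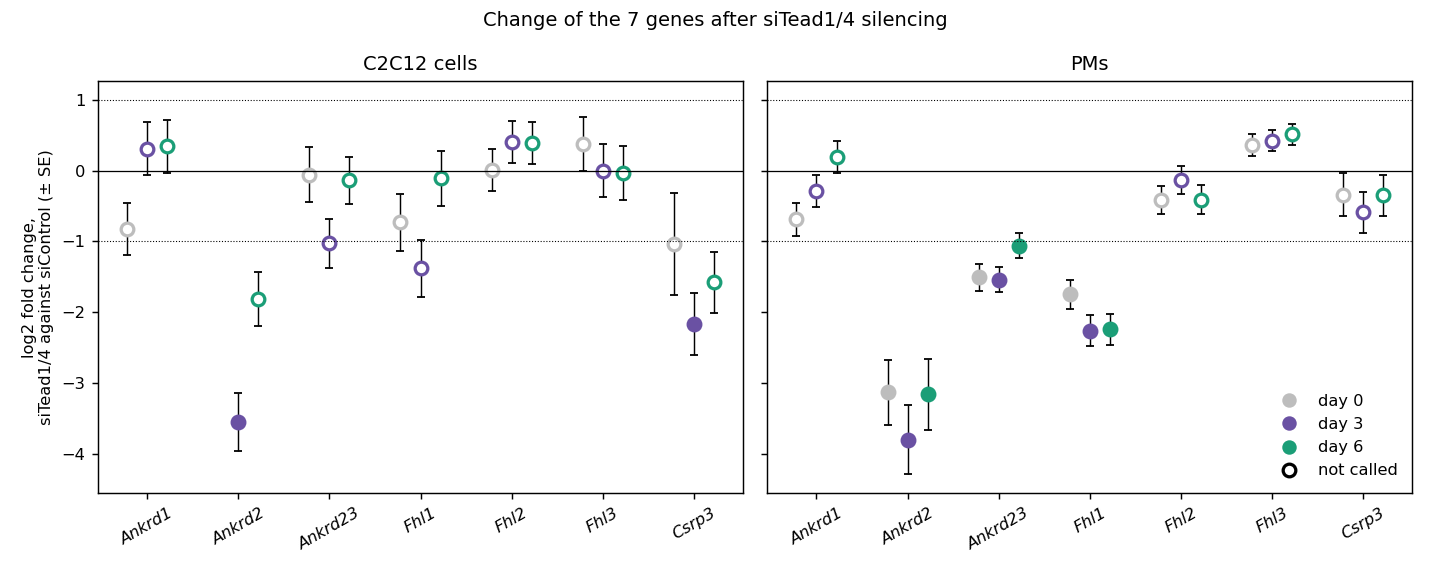
Log2 fold change of siTead1/4 against siControl with its approximate standard error for each gene, in C2C12 cells (left) and PMs (right), coloured by day. Filled points were called, open points were not, and dotted lines mark the size needed for a call. Ankrd2 of C2C12 cells at day 0 has no point because both groups were at or under 3 counts per library. The filled points of PMs are Ankrd2, Ankrd23 and Fhl1 at all 3 days, and those of C2C12 cells Ankrd2 and Csrp3 at day 3.

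In C2C12 cells the called falls after silencing were those of Ankrd2 and Csrp3 at day 3, beside 1.27% of all genes called. At day 0 none of the 7 was called by edgeR or by DESeq2, beside 0.438% of all genes called by edgeR. At day 6 edgeR called none, beside 0.0457% of all genes, and DESeq2 called Ankrd2 and Csrp3, beside 143 genes in all. An unadjusted p under 0.05 was reached by 1 of the 7 at day 0 and 2 at day 6. Of all 15303 tested genes, 1603, 2180 and 1064 reached it at days 0, 3 and 6. The median log2 fold change, at day 0 over the 6 genes above the floor of 3 counts and otherwise over all 7, was -0.40, -1.03 and -0.11 at days 0, 3 and 6, beside 0.02, 0.01 and 0.01 over all tested genes.

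Ankrd2 stood at 4.05 and 8.66 CPM in siTead1/4 C2C12 cells at day 3 against 84.9 and 60.7 in siControl. Both silenced libraries were far below both controls, and 8.73% of the control mean remained (log2 fold change -3.55, SE 0.41, adjusted p = 0.0093 by edgeR). Without the second siControl library the adjusted p was 0.0512, and without the second siTead1/4 library the log2 fold change was -4.18 and still called. At day 6 the libraries were at 8.33 and 15.4 against 42.0 and 41.4 CPM. They did not overlap, and the log2 difference of -1.81 had an edgeR adjusted p of 0.155 and a DESeq2 adjusted p of 0.003. At day 0 all 4 libraries held at most 3 counts, so that no fold is given.

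Csrp3 had 18.7 and 27.6 CPM in siTead1/4 C2C12 cells at day 3 against 111 and 93.5 in siControl, which left 22.6% of the control mean (log2 fold change -2.17, SE 0.44, adjusted p = 0.0454 by edgeR). The groups were well apart, but the call was lost with any 1 of the 4 libraries left out, with adjusted p from 0.114 to 0.239. At day 6 the values were 28.9 and 45.5 against 124.5 and 99.4 CPM, again without overlap, with a log2 difference of -1.58 and an edgeR adjusted p of 0.32. The DESeq2 adjusted p there was 0.0368.

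Fhl1 was at 250.5 and 171 CPM in siTead1/4 C2C12 cells at day 3 against 569 and 508 in siControl, a log2 difference of -1.38 that edgeR did not call (adjusted p = 0.139) and DESeq2 did (adjusted p = 0.0166). The libraries of day 3 did not overlap, whereas at day 6 they stood at 343 and 553 against 557 and 412 CPM and did. Ankrd23 was at 48.6 and 72.8 against 116.5 and 127 CPM at day 3 (log2 difference -1.03, adjusted p = 0.178 by edgeR) and overlapped at day 6. With all 24 libraries in one fit both genes were called at day 3 (adjusted p = 0.0269 for Fhl1 and 0.0486 for Ankrd23). Ankrd1 was at 241 and 409.8 against 615.5 and 542 CPM at day 0 and overlapped at days 3 and 6, when both siTead1/4 means were above those of siControl. At day 0 the lower of its silenced libraries was the first replicate, the library that kept more Tead1. Tead4 was at 4.37 and 4.28 CPM in these silenced libraries. A link of Ankrd1 to the remaining Tead1 or Tead4 was not tested. The summed muscle markers of the silenced libraries at day 0 were 987 and 2402 CPM against 1984 and 1727 CPM in siControl. Fhl2 and Fhl3 differed by at most 0.40 on the log2 scale, with no call.

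Cell type markers of these libraries are given beside these values. The summed level of the skeletal muscle markers at day 3 was 5613.5 and 7731 CPM in siTead1/4 against 10415 and 9848 CPM in siControl, and at day 6 6745 and 10177 against 11013 and 11627 CPM. The summed fibroblast markers at day 3 were 23911 and 13301 against 10244 and 11573 CPM. C2C12 cells are 1 line, so this sum gives the level of these genes and not a share of fibroblasts. Thy1, 1 of these markers, was at 0 in both silenced libraries of days 0 and 3 and in both siControl libraries of days 0 and 6. None of the 10 muscle or 8 tested fibroblast markers was called by edgeR at day 3, with 0 and 4 at an unadjusted p under 0.05, and DESeq2 called 1 fibroblast marker up and 1 down. The summed smooth muscle and pericyte markers were 1589 and 2438 against 3295 and 3361 CPM at day 3 and 2010.5 and 3899 against 4477.5 and 4732 CPM at day 6, and without Des 175 and 158 against 203 and 213 and 126.5 and 195 against 196 and 207 CPM. None of the 3 that were tested was called in C2C12 cells by edgeR or DESeq2, with 0, 1 and 0 at an unadjusted p under 0.05 at days 0, 3 and 6. At day 0 in C2C12 cells 1 of 4 tested Schwann cell markers was called down, beside 0.438% of all genes, with a summed level of 2.14 and 2.09 against 20.7 and 16.2 CPM. The part of these markers in the results was not tested.

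Whether the effect of silencing differed between days or cell types was tested as an interaction. No gene of the 7 was called in PMs or in C2C12 cells when the effect at day 3 or day 6 was set against that at day 0, by edgeR or by DESeq2. In edgeR the interaction reached an unadjusted p under 0.05 for 1 of them in each cell type at day 6 and for 0 at day 3. Of all tested genes 2170 and 2169 in PMs and 1745 and 1298 in C2C12 cells reached it at days 3 and 6. All genes called came to 0.328% and 0.626% in PMs and to 0.0% at both days in C2C12 cells. Among the fitted values Ankrd1 had the largest difference at day 6, 0.88 in PMs (SE 0.32, adjusted p = 0.25 by edgeR) and 1.17 in C2C12 cells (SE 0.52, adjusted p = 0.586 by edgeR), both towards a higher level after silencing at the later day.

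Between cell types edgeR called none of the 7 at any day, beside 0.00591%, 1.25% and 0.0354% of all genes at days 0, 3 and 6. At an unadjusted p under 0.05 stood 2, 1 and 3 of the 7, beside 725, 2205 and 916 of all 16926 tested genes. DESeq2 called none at days 0 and 3 and Fhl1 at day 6, beside 32, 494 and 60 genes in all at these days. Fhl1 at day 6 had a log2 fold change after silencing of -2.24 in PMs and -0.11 in C2C12 cells. The fitted difference was -2.13 (SE 0.48, adjusted p = 0.177 by edgeR, DESeq2 adjusted p = 0.0103). Csrp3 at day 3 had the smaller fall in PMs, at -0.59 against -2.17. Its fitted difference was 1.56 (SE 0.53, adjusted p = 0.182 by edgeR). For Ankrd23 at day 0 the difference was -1.45 (SE 0.47, adjusted p = 0.71 by edgeR), towards a larger fall in PMs. For Ankrd2 at day 3 it was -0.28 (SE 0.63). The calls that PMs had and C2C12 cells lacked are therefore not shown by edgeR to differ between the cell types.

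Over the 12 groups Ankrd1 had the narrowest range of the ankyrin repeat genes, with means from 276 CPM in siTead1/4 PMs at day 3 to 937 CPM in siTead1/4 C2C12 cells at day 6, and all but 1 pair of neighbours in this order overlapped. Ankrd23 was highest in siControl PMs at day 6 (1532 ± 209 CPM), apart from its neighbour, and lowest in undifferentiated C2C12 cells. Fhl1 was likewise highest in siControl PMs at day 6 (1429.6 ± 19.8 CPM) and apart from the next group, and lowest in siTead1/4 PMs at day 0 (46.1 ± 12.7 CPM). Fhl2 was highest in siTead1/4 C2C12 cells at day 3 (75.0 ± 10.6 CPM), where it overlapped the next group, and Fhl3 in siTead1/4 PMs at day 3 (175 ± 1.05 CPM), where it did not. Ankrd2 was highest in siControl C2C12 cells at day 3 (72.8 ± 17.1 CPM), apart from day 6 of the same cells.

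The patterns over the 24 libraries were compared by Pearson's r of log2 CPM with each of 16926 genes, as a description, since libraries share groups, cell type and depth. Csrp3 was most like Cacna1s, the voltage sensor of excitation-contraction coupling (r = 0.989), then Lmod2 (0.987) and Trim72 (0.986). Ankrd23 was most like 1190007F08Rik (r = 0.981), Mybpc2 and Adprhl1 (both 0.979). For Fhl2 the nearest genes were Mfge8 (r = 0.941), Aga and Ankrd13b, for Ankrd2 Recql5 (r = 0.927) and Rab3il1, and for Fhl3 Nfatc2 (r = 0.907), Tnk2 and Mlf1. Fhl1 was most like Dusp8 (r = 0.879), Rhox10 and Kctd9, and Ankrd1 like Myl12a and Fkbp1b (both 0.83) and Tmed7 (0.806). Of the 21 pairs among the 7 genes, Ankrd23 and Csrp3 had the highest r (0.893).

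Other genes of the same machinery were followed by list, and counts of a list are read beside the share of all genes called after silencing, which was 0.438%, 1.27% and 0.0457% in C2C12 cells and 2.6%, 3.3% and 0.743% in PMs at days 0, 3 and 6. In C2C12 cells 1603, 2180 and 1064 of all 15303 tested genes had an unadjusted p under 0.05 at these days. In PMs 3756, 3668 and 1914 of 16144 did, and list counts at that threshold are read beside these. DESeq2 called 256, 603 and 143 genes in C2C12 cells and 454, 588 and 224 in PMs. Medians of a list leave out its genes at the floor. Of 24 partners of titin and the Z-disc, none rose and 3 of 22 tested fell after silencing in C2C12 cells at day 3, beside 1.27% of all genes, with a median log2 fold change of -1.07 beside 0.01 over all genes. The largest fall was that of Actn2, the actin cross-linker of the Z-disc, at 1504 and 1955 counts in siTead1/4 against 11436 and 23403 in siControl (log2 fold change -3.16, adjusted p = 0.0294 by edgeR). In PMs 1 of 24 fell at day 3, beside 3.3% of all genes. This was Xirp2 (log2 fold change -2.27, adjusted p = 0.023 by edgeR). No gene of the list was called by edgeR at days 0 and 6 in either cell type, with 5 to 13 at an unadjusted p under 0.05. DESeq2 called 7 down in C2C12 cells and 2 down in PMs at day 3, 1 up and 2 down in C2C12 cells at day 0, and none in PMs at days 0 and 6 or in C2C12 cells at day 6. The median in PMs was -0.37, -0.17 and -0.04 on the log2 scale at days 0, 3 and 6.

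Of 23 other LIM domain genes, 3 of 22 tested fell and none rose in siTead1/4 PMs at day 0, beside 2.6% of all genes. Lmcd1, a LIM cofactor of muscle and heart, had the largest fall, at 328 and 231 counts against 1260 and 754 (log2 fold change -1.98, adjusted p = 0.0016 by edgeR). At day 3 in PMs 1 rose and 1 fell, beside 3.3% of all genes, and at day 6 1 rose, beside 0.743%. The largest rise was that of Jub, the adhesion protein Ajuba, at day 3 (log2 fold change 1.13, adjusted p = 0.00387 by edgeR). In C2C12 cells 2 of 21 fell at day 3, beside 1.27% of all genes, among them Ablim3, an actin-binding LIM protein (log2 fold change -2.08, adjusted p = 0.0162 by edgeR). At days 0 and 6 edgeR called none there, with 1 and 4 at an unadjusted p under 0.05, and DESeq2 none and 1. The median log2 fold change of the list was -0.20, 0.21 and 0.20 in PMs and -0.03, 0.00 and 0.00 in C2C12 cells at days 0, 3 and 6.

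Of 21 genes known as targets of Yap and Tead in other cells, none fell by edgeR in any of the 6 silencing comparisons, and DESeq2 called 1 fall, in C2C12 cells at day 3. In PMs 2 rose at day 0, 1 at day 3 and 1 at day 6, beside 2.6%, 3.3% and 0.743% of all genes. At an unadjusted p under 0.05 stood 8, 6 and 3 of the 21, beside 3756, 3668 and 1914 of all 16144 tested genes. The rises at day 0 were Tgfb2, a growth factor gene, at 4381 and 6739 counts against 1311 and 1589 (log2 fold change 1.70, adjusted p = 0.00529 by edgeR), and Ccdc80 (log2 fold change 1.14, adjusted p = 0.0114 by edgeR). In C2C12 cells edgeR called none at any day, beside 0.438%, 1.27% and 0.0457% of all genes, and DESeq2 called 1 rise at each day. At an unadjusted p under 0.05 stood 4, 6 and 4 of the 21 at days 0, 3 and 6, beside 1603, 2180 and 1064 of all tested genes. Their median log2 fold change was -0.17, 0.20 and 0.21 in PMs and -0.14, 0.26 and 0.42 in C2C12 cells at days 0, 3 and 6. Of 24 targets of serum response factor and its cofactor Mrtf, 1 rose and 1 fell in PMs at day 0, beside 2.6% of all genes. They were Fos (log2 fold change 1.54, adjusted p = 0.00482 by edgeR) and the actin-binding Tagln (-1.56, adjusted p = 0.00556 by edgeR). In the other 5 comparisons edgeR called none of these 24, with 1 to 8 at an unadjusted p under 0.05, and DESeq2 called 2 falls in C2C12 cells at day 3 and 1 rise in PMs at day 6. The median of the 24 was -0.25, 0.26 and 0.23 in PMs and -0.02, 0.05 and 0.31 in C2C12 cells at days 0, 3 and 6.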

How the data were processed

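Polyadenylated RNA was made into libraries with a TruSeq v2 kit that does not keep the strand. Per the labels and the submitters' processing notes, the authors used CASAVA 1.8.2, TopHat2 2.0.10, Bowtie2 2.1.0, HTSeq 0.6.1 and DESeq2 1.8.1 with the mm9 build. The authors deposited raw read counts of 28109 genes, which were used for all tests. The deposited signal columns hold these counts divided by a DESeq2 size factor, and the same per kb of gene length. Neither was used, and gene length was taken from the same table. The 36 columns of 12 libraries not listed among the samples were not used.

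Counts were fitted in R 4.3.3 with edgeR 4.0.16 (filterByExpr, TMM, glmQLFit and glmQLFTest), per cell type with 6 group means (12 libraries) or, for comparisons and interactions between cell types, with all 24 libraries. The fits tested 15303 genes in C2C12 cells, 16144 in PMs and 16926 in all libraries, and adjusted p-values over all of them. DESeq2 1.42.0, DESeq2 size factors, no filter, a replicate block, 1 fit of all libraries and leaving out each library were tried as alternatives. The fits were tested on simulated data. The 7 genes and all lists were chosen with earlier results of these data known. Named beside the 7 genes and the targeted genes were, by rule, up to 2 of the largest called rises and falls after silencing of each pathway list and the 3 genes most alike in pattern to each of the 7, of which 1 is not reported here. Promoters came from RefSeq on GRCm38.p6, which differs from the build of the counts. Protein sequences were not used here. The spread of 2 libraries a group is weak on its own and was moderated over genes, and total counts of 25453830 or more per library leave mainly the genes at or under 3 counts without a fold change.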

Additional observations from a re-analysis of the deposited data

Results flagged for a closer look

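In siControl cells 3 genes moved in opposite directions in PMs and C2C12 cells without overlap of the libraries of the days compared. The share of all genes that did so was not counted. The 3 are therefore a description and are not shown to differ from other genes in this. The difference between the cell types was not tested. For Fhl3 the log2 fold change from day 0 to day 3 was 1.47 in PMs and -1.01 in C2C12 cells, and from day 0 to day 6 it was 1.14 in PMs and -0.79 in C2C12 cells, where neither was called. For Fhl2 the change from day 0 to day 6 was 1.14 in PMs and -0.46 in C2C12 cells, the latter not called. For Ankrd2 the change from day 0 to day 6 was -1.10 in PMs, while in C2C12 cells the level at day 6 was at least 605-fold higher than at day 0. Groups of 2 libraries allow no test for outlying samples.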

How the results depend on the processing

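Fold changes of the 7 genes were followed through the alternatives only where the main edgeR fit gave an unadjusted p under 0.05. The difference of the Fhl1 effect between cell types was followed at every day. Values at the floor were left out. None of the followed fold changes reversed. After silencing in C2C12 cells at day 3, 2 of the 7 genes were called. There were 4 with no filter on low counts, 4 with all 24 libraries in one fit, and 0 to 1 with 1 library left out. At day 6 there, 2 were called with no filter and 2 with DESeq2, against 0. With 1 library left out, 1 to 3 were called after silencing in PMs at day 6 and 3 to 5 for siControl PMs at day 3 against day 0. For the difference of the effect between cell types, 1 was called at each of days 0, 3 and 6 with no filter (Ankrd23, Csrp3 and Fhl1) and 1 at day 6 with DESeq2. The cause was not tested.

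The labels do not say whether same-numbered libraries share a culture or a day, and they were treated as unpaired. Their deviations from the group means correlated at -0.17 to 0.47 (median 0.08, over 0.1 in 6 and under -0.1 in 3) over the 15 pairs of groups in C2C12 cells and at 0.05 to 0.50 (median 0.20, over 0.1 in 14 and under -0.1 in 0) over the 15 in PMs. With the replicate block, 1 gene was called after silencing in C2C12 cells at day 3, as Csrp3 was lost (log2 fold change -2.16, adjusted p = 0.0547). No other call changed with the block. Levels without TMM were 0.883 to 1.17 times those with it. With 1 library left out, none of the followed fold changes reversed, though some of the calls were lost as given above. What could be detected is limited by 2 libraries per group and, for Ankrd2 in undifferentiated C2C12 cells, by counts of at most 3.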
